A study of Mus musculus with 6 samples.

Results

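The 10 genes described here encode the MHC class I antigen presentation machinery. They were the heavy chains *H2-K1* and *H2-D1*, the light chain *B2m*, the transporter subunits *Tap1* and *Tap2*, tapasin (*Tapbp*), the immunoproteasome subunits *Psmb8*, *Psmb9* and *Psmb10*, and the transactivator *Nlrc5*. They were 10 of the 24346 genes with a value in the deposited tables. They were matched by symbol and had been picked with earlier results of these data in view, in which their level was high in the N group and low in both others, so the pattern over the groups is a description and carries no test. Heart RNA of C57BL/6J male mice was sequenced in 6 libraries, 2 in each of 3 groups. The C group received chow, the N group received the NASH diet, which is rich in fat, cholesterol and sucrose and contains bile acid, and the NP group received this diet together with pemafibrate, a PPARα modulator, at 0.1 mg/kg. No group carried a transgene or a deletion. The labels give 3 weeks of feeding, whereas the methods of the study give a longer time, and the labels' extraction protocol speaks of liver although their tissue is heart.

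MHC class I molecules carry short peptides from inside the cell to its surface, where CD8 T cells and NK cells read them. The peptides are cut by the proteasome, in which the interferon-inducible immunoproteasome subunits can take the places of the constitutive catalytic subunits, and are then pumped into the endoplasmic reticulum by TAP and loaded with the help of tapasin. Nearly all nucleated cells express the pathway at some level, cardiomyocytes weakly, and interferons raise it through factors such as IRF1 and NLRC5.

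Of the 10 genes, 7 lie on chromosome 17 of the mouse genome (GRCm38.p6, the RefSeq form of mm10). *Tapbp* lies at chr17:33919478-33929290, *H2-K1* at chr17:33996012-34000619 and *H2-D1* at chr17:35263094-35267497. Between the heavy chain genes, *Psmb9* at chr17:34182030-34187330, *Tap1* at chr17:34187556-34197225, *Psmb8* at chr17:34198195-34201454 and *Tap2* at chr17:34204479-34216321 follow each other. *B2m* lies at chr2:122147687-122153082, *Nlrc5* at chr8:94434335-94527272 and *Psmb10* at chr8:105935728-105938392.

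Promoter sequences of 8 of the genes were matched in RefSeq. The 250 bases before the start site are shown for 5 of the 6 genes whose promoters carried letters of interferon or NF-κB motifs, so that the matches can be seen. The window of the remaining one, *Psmb9*, overlaps that of *Tap1*, and *Tapbp* and *Psmb10* held no such match. Capitals mark matches to the ISRE (GAAA, then any 2 bases, then GAAA), to the GAS (TTCNNNGAA, its own reverse complement) or to the kappaB motif (GGG, any 3 bases, T, any 1 base, then CC), each searched on both strands. The windows are *H2-K1* at chr17:34000334-34000583 on the minus strand, *H2-D1* at chr17:35262844-35263093, *B2m* at chr2:122147437-122147686, *Tap1* at chr17:34187306-34187555 and *Psmb8* at chr17:34197945-34198194, the last 4 on the plus strand.
H2-K1: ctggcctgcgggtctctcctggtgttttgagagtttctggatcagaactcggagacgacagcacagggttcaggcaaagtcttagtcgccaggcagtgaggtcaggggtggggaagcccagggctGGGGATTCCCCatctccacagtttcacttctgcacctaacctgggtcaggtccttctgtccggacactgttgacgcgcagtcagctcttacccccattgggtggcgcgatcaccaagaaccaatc
H2-D1: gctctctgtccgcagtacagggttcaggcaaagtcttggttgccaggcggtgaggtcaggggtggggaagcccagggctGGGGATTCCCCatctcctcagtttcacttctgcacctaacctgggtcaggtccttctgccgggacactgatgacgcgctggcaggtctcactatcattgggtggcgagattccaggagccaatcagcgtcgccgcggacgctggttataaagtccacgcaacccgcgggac
B2m: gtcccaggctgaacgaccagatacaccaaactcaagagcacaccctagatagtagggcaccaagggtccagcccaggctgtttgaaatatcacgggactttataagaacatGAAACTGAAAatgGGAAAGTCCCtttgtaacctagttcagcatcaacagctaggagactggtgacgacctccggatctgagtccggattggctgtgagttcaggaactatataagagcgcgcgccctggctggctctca
Tap1: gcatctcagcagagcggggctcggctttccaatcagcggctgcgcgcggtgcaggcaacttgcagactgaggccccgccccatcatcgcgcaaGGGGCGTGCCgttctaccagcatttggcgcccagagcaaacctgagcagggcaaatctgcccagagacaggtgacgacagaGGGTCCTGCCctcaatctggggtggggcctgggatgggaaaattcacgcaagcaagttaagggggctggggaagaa
Psmb8: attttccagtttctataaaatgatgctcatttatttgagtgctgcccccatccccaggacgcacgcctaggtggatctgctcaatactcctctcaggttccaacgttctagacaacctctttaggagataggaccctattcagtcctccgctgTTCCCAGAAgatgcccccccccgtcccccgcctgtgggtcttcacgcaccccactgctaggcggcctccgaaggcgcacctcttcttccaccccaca

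The capitals of *H2-K1* and *H2-D1* are the same run, GGGGATTCCCC, which holds 2 overlapping kappaB matches. It lies within 47 bases that are identical in both windows, the longest run they share. In *B2m*, an ISRE match, GAAACTGAAA, stood at -139 to -130 and a kappaB match, GGAAAGTCCC, at -126 to -117 from the start site. The *Tap1* window held kappaB matches at -157 to -148 and at -76 to -67. *Psmb9* starts 226 bases away on the opposite strand, and its window of 300 bases (250 before and 50 after the start) shares 275 bases with that of *Tap1*, so both kappaB matches belong to both genes. The *Psmb8* window held a GAS match, TTCCCAGAA, at -97 to -89.

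Over all 32851 promoters of the same length, 3.44% held the ISRE letters, 8.30% the GAS letters and 17.4% the kappaB letters. Among the 8 matched genes, 1 held the ISRE (*B2m*), 1 the GAS (*Psmb8*) and 5 the kappaB motif. The CCAAT letters (or ATTGG on the other strand), which are not in capitals, were in 6 of the 8 genes and in 37.4% of all promoters. A match of letters is a description and not a binding site. The search allowed only these spellings, so a window without a match, such as that of *H2-K1* or *H2-D1* for the ISRE, may still hold such an element.

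Before the values, some features of the libraries have to be given. The FPKM (fragments normalised for transcript length and library size) summed to between 548411 and 652311 per library. From the smallest steps between low FPKM values, the C libraries were estimated at 26100000 and 21400000 reads and the N and NP libraries at between 8150000 and 8760000. The whole-read steps were met to within 0.1 read by 74.3 to 79.4% of the low values used, so these depths are approximate. The 8 ventricular and shared cardiomyocyte genes summed to between 47970 and 69650 FPKM in the 6 libraries. Atrial cardiomyocyte genes summed to 307 and 172 FPKM on chow, but to 3647 and 5117 on the NASH diet and to 3704 and 6124 with pemafibrate. Hepatocyte genes summed to 438 FPKM in C replicate 2, against 9.77 to 31.1 in the other 5 libraries. C replicate 1 held liver transcripts too, with *Alb* at 10.8 FPKM against 0.555 to 2.04 in the N and NP libraries. *Apoa1* was at 9.36 FPKM there, against 0.146 to 1.87. Of the 6 genes, 1 had a higher mean in N than in C. This was *Cyp2e1*, which made up 29.9 of the 31.1 FPKM in N replicate 1. The adipocyte gene *Adipoq* was at 0.593 and 1.13 FPKM on chow, 16.0 and 14.6 on the NASH diet and 1.66 and 11.9 with pemafibrate, while *Fabp4* of the same list was at 1341 and 1322, 1005 and 1195, and 995 and 1057 FPKM. The files of N and NP replicate 1 have names of another kind than those of replicate 2, without a stated meaning, and the class I differences within each replicate number are given further on. The labels do not say whether the libraries of a group came from separate mice, so *P* values measure only the spread between these libraries.

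*B2m*, the light chain shared by all class I molecules, was the most abundant of the 10 genes on the FPKM scale. Its level was 347 and 305 FPKM on chow, 2301 and 2874 on the NASH diet and 260 and 373 with pemafibrate. Both N libraries stood above all others, and the NP libraries lay on either side of the C libraries. The mean was 2587 ± 405 (SD, n = 2) in the N group and 326 ± 29.9 (SD, n = 2) in the C group, which is 7.94-fold. Among the 24346 genes of a library, it ranked 282 and 317 on chow, 23 and 17 on the NASH diet and 324 and 257 with pemafibrate.

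*H2-K1*, a heavy chain that presents the peptide, was at 109 and 91.9 FPKM on chow, 956 and 933 on the NASH diet and 76.9 and 104 with pemafibrate. *H2-D1*, the other classical heavy chain, was at 135 and 115 FPKM on chow, 650 and 543 on the NASH diet and 105 and 116 with pemafibrate. For both genes the N libraries were high and the ranges of the C and NP groups overlapped. The *H2-K1* mean was 9.41 times as high on the NASH diet as on chow and 10.5 times as high as with pemafibrate. The *H2-D1* mean was 4.77 and 5.41 times as high, in that order.

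The difference between the heavy chains changed their order. The ratio of *H2-K1* to *H2-D1* FPKM was 0.807 and 0.799 on chow and 0.735 and 0.894 with pemafibrate, with *H2-D1* the higher. In the N libraries it was 1.47 and 1.72, with *H2-K1* the higher. Reads of these near-identical genes may be divided between family members by the counting, so single levels are uncertain. *H2-L*, a close relative of *H2-D1* that has a value in the files, was at 34.0 and 14.5 FPKM on chow, 69.6 and 45.1 on the NASH diet and 14.1 and 10.7 with pemafibrate. With *H2-L* added to *H2-D1*, an alternative chosen after seeing the data, the ratio was 0.644 and 0.710 on chow, 1.33 and 1.59 on the NASH diet and 0.647 and 0.818 with pemafibrate.

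The ratio of *B2m* to the sum of *H2-K1* and *H2-D1* varied less. It was 1.42 and 1.47 on chow, 1.43 and 1.95 on the NASH diet and 1.43 and 1.70 with pemafibrate, so the 3 groups overlapped.

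**Figure D1:**
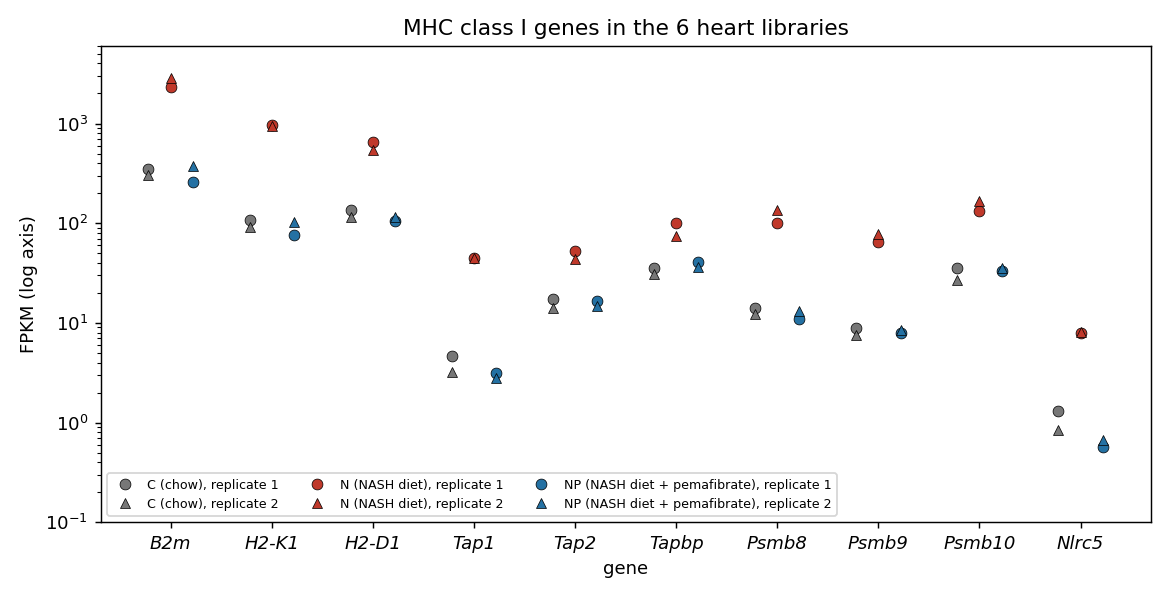
FPKM of the 10 MHC class I genes on a log axis, 1 point per library, with circles for replicate 1 and triangles for replicate 2 and a colour for each group. For each of the 10 genes both N points lie above the 4 C and NP points, from *B2m* at 2301 and 2874 FPKM in the N libraries down to *Nlrc5* at 7.97 and 8.11.

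*Tap1*, a subunit of the peptide transporter, had the highest ratio of N to C means among the 10 genes. Its level was 4.63 and 3.21 FPKM on chow, 44.4 and 45.1 on the NASH diet and 3.13 and 2.78 with pemafibrate. The N libraries differed from each other by little, and both NP libraries lay below both C libraries. The mean in the N group was 11.4-fold that of the C group and 15.1-fold that of the NP group. The NP values rest on about 94.6 and 87.2 reads, the N values on about 1430 and 1470.

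*Tap2*, the partner with which *Tap1* forms the transporter, was at 17.2 and 14.1 FPKM on chow, 53.1 and 43.8 on the NASH diet and 16.7 and 14.8 with pemafibrate. The N libraries were again the high ones, and the NP libraries lay inside the range of the C libraries. The N to C ratio of means was 3.10, below that of *Tap1*. The ratio of *Tap1* to *Tap2* within a library was therefore 0.269 and 0.228 on chow, 0.836 and 1.03 on the NASH diet and 0.187 and 0.187 with pemafibrate. *Tap1* was the lower of the pair in the C and NP groups and close to *Tap2* in the N group.

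*Tapbp*, the chaperone that bridges TAP and the class I heavy chain, had the smallest difference. It was at 35.7 and 31.0 FPKM on chow, 102 and 74.5 on the NASH diet and 41.0 and 36.3 with pemafibrate. Both NP libraries lay above both C libraries, and both N libraries above these. The N mean was 2.64-fold the C mean and 2.28-fold the NP mean.

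The immunoproteasome subunits cut the proteins into the peptides that TAP transports. *Psmb8* was at 13.95 and 12.21 FPKM on chow, 99.3 and 136 on the NASH diet and 10.9 and 13.2 with pemafibrate. *Psmb9* was at 8.93 and 7.58 FPKM on chow, 64.2 and 77.3 on the NASH diet and 7.94 and 8.43 with pemafibrate. *Psmb10* was at 35.6 and 27.0 FPKM on chow, 133 and 167 on the NASH diet and 33.1 and 35.7 with pemafibrate. For these 3 subunits the N libraries were high and the C and NP ranges overlapped. The N mean was 8.995-fold the C mean for *Psmb8*, 8.57-fold for *Psmb9* and 4.798-fold for *Psmb10*. *Psmb9* and *Tap1* overlap on opposite strands in GENCODE M21, and although the library kit keeps the strand, the strand setting of the counting is not given in the sources used here, so their levels are uncertain.

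Each immunoproteasome subunit takes the place of a constitutive catalytic subunit, and the ratio of the pair within a library does not depend on how the libraries are scaled. *Psmb8* over *Psmb5* was 0.0939 and 0.0851 on chow, 0.814 and 1.20 on the NASH diet and 0.0877 and 0.114 with pemafibrate. *Psmb9* over *Psmb6* was 0.0566 and 0.0473 on chow, 0.484 and 0.613 on the NASH diet and 0.0691 and 0.0705 with pemafibrate. *Psmb10* over *Psmb7* was 0.159 and 0.116 on chow, 0.777 and 0.763 on the NASH diet and 0.210 and 0.179 with pemafibrate. The N libraries were thus the high ones in all 3 pairs, with a mean ratio 11.3, 10.5 and 5.61 times that of the C group. For *Psmb9* and *Psmb10* both NP libraries stood above both C libraries, while for *Psmb8* these groups overlapped. The levels of *Psmb9* and *Psmb10* themselves overlapped between NP and C. Their denominators were lower in NP, with *Psmb6* at 158 and 160 FPKM on chow and 115 and 120 with pemafibrate. *Psmb7* was at 224 and 233 FPKM on chow and 158 and 200 with pemafibrate.

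The denominators were not called. *Psmb5* was at 148 and 143 FPKM on chow and at 122 and 113 on the NASH diet, and its difference from C to N was -0.31 ± 0.10 on the log2(FPKM + 1) scale (limma, SE, adjusted *P* = 0.256). *Psmb6* had a difference of -0.29 ± 0.10 (limma, adjusted *P* = 0.253) and *Psmb7* one of -0.24 ± 0.17 (limma, adjusted *P* = 0.584). From C to NP, *Psmb5*, *Psmb6* and *Psmb7* differed by -0.29 ± 0.10, -0.44 ± 0.10 and -0.36 ± 0.17 (limma, adjusted *P* = 0.583, 0.462 and 0.652). The mean FPKM of all 14 constitutive 20S subunits was 123 and 129 on chow, 104 and 126 on the NASH diet and 95.4 and 113 with pemafibrate. The 3 immunoproteasome subunits summed to 58.4 and 46.8 FPKM on chow, 296 and 381 on the NASH diet and 51.9 and 57.3 with pemafibrate.

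**Figure D2:**
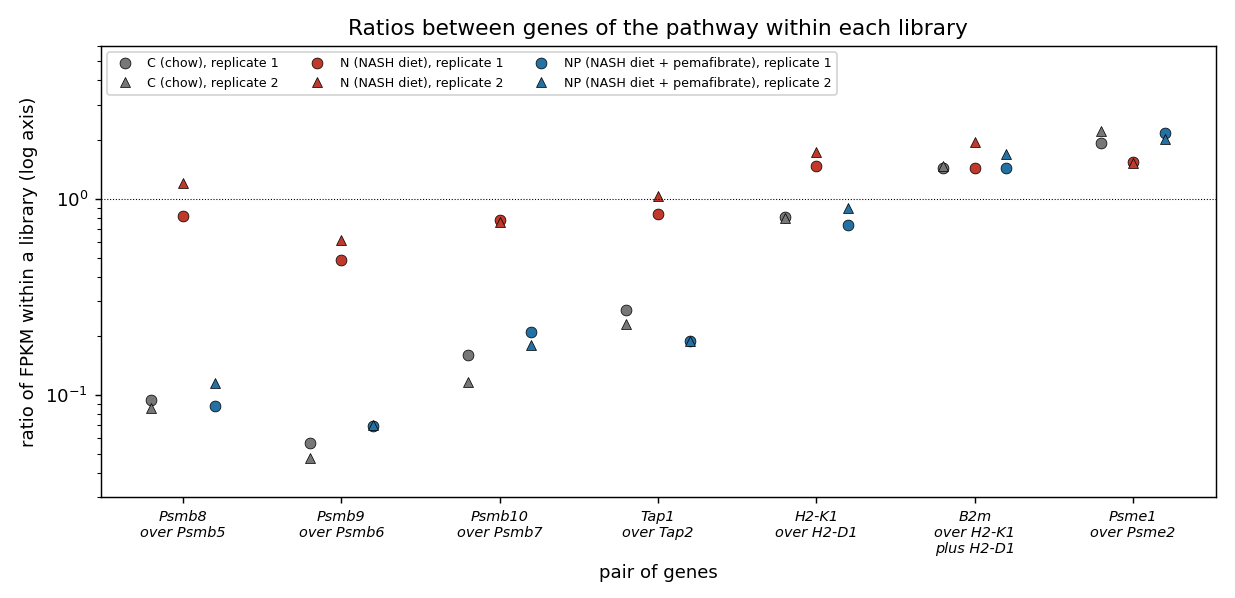
Ratios of FPKM between gene pairs of the pathway within each library on a log axis, with a dotted line at a ratio of 1. The immunoproteasome to constitutive ratios and *Tap1* over *Tap2* are high in both N libraries, *H2-K1* over *H2-D1* lies above 1 in the N libraries only, and *B2m* over the heavy chains overlaps between the groups.

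*Nlrc5*, the transactivator of class I genes, had the lowest level of the 10. It was at 1.32 and 0.843 FPKM on chow, 7.97 and 8.11 on the NASH diet and 0.573 and 0.661 with pemafibrate. The N libraries were close to each other, and both NP libraries lay below both C libraries. The N mean was 7.45-fold the C mean and 13.04-fold the NP mean. The estimated reads behind these values were about 253 and 133 on chow, 512 and 525 on the NASH diet and 34.5 and 41.2 with pemafibrate, so the NP level is the least precise.

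On the log2(FPKM + 1) scale, the difference between the N and C groups ran from 1.36 ± 0.18 (SE of the limma fit) for *Tapbp* to 3.23 ± 0.16 for *Tap1*. The median over the 10 genes was 2.60, against -0.03 over the 12923 genes whose FPKM averaged 0.5 or more, and all 10 passed this filter. *H2-K1* at 3.23 ± 0.17, *Psmb8* at 3.06 ± 0.19, *B2m* at 2.98 ± 0.21 and *Psmb9* at 2.95 ± 0.14 were near *Tap1*. *H2-D1* at 2.24 ± 0.15, *Psmb10* at 2.23 ± 0.18 and *Nlrc5* at 2.13 ± 0.15 came next and did not differ from each other beyond their errors. *Tap2* at 1.57 ± 0.16 was the last before *Tapbp*. With 1 added to each value, the difference of the low gene *Nlrc5* is understated.

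In both comparisons with N the libraries did not overlap for any of the 10, as was the case for 22.5% of all genes (higher in N than in C) and 14.7% (lower in NP than in N). The genes were chosen on these contrasts, so nothing is read from this.

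From N to NP the differences ran from -1.15 ± 0.18 for *Tapbp* to -3.53 ± 0.16 for *Tap1*, with a median of -2.72 against 0.03 over all genes. *H2-K1* was at -3.39 ± 0.17, *B2m* at -3.04 ± 0.21 and *Nlrc5* at -2.48 ± 0.15. The N libraries enter both comparisons, so the differences from C and from NP are not independent of each other.

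The NP and C groups lay close together. Of the 10 genes, 3 were higher and 7 lower with pemafibrate than on chow, with a median difference of -0.09, but with every library scaled to the same FPKM total 6 were higher and 4 lower with a median of 0.06, and with quantile normalization 4 were higher and 6 lower. That scaling to the same total moved the median of all genes between N and C from -0.03 to 0.12. The largest difference was -0.35 ± 0.15 for *Nlrc5*, followed by -0.30 ± 0.16 for *Tap1* and 0.21 ± 0.18 for *Tapbp*. These 3 were the genes for which the NP and C libraries did not overlap, as was the case for 42.5% of all genes in either direction. With 1 added to each value, the difference of *Nlrc5* is understated here too, and its NP mean was 0.571 times its C mean. With a pseudocount of 0.1 the lowest of the 10 differences was -0.69.

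**Figure D3:**
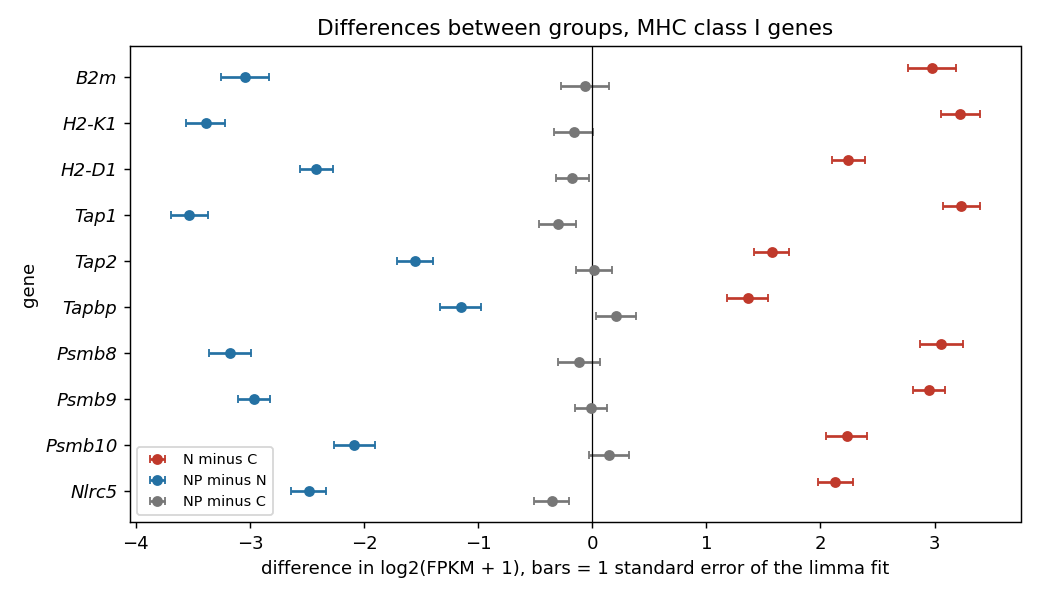
Differences between groups in log2(FPKM + 1) for the 10 genes, with bars of 1 standard error of the limma fit. The N minus C points run from 1.36 to 3.23, the NP minus N points from -3.53 to -1.15, and the NP minus C points lie between -0.35 and 0.21, a direction that changes with the scaling for some genes.

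Within the groups, the largest gap between the replicates was 0.52 on the log2(FPKM + 1) scale, for *B2m* in the NP group. C replicate 1 was above C replicate 2 for 10 of the 10 genes. N replicate 1 was above N replicate 2 for 4, and NP replicate 1 above NP replicate 2 for 3. Without C replicate 2, the library with the highest sum of hepatocyte genes, the median N minus C difference was 2.49, and without C replicate 1 it was 2.74. Within replicate number 1 the median NP minus N difference was -2.75, and within number 2 it was -2.70.

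The other genes of the pathway were taken from 7 lists of 71 genes. The lists were set by pathway but with earlier results of these data known, so counts over them are a description. Of the 71 genes, 58 passed the filter. Of these 58, 15 were higher in N than in C and 0 lower, and 17 were lower in NP than in N and 0 higher (limma, adjusted *P* under the threshold of 0.05), and 15 were in both sets. Of all genes tested, 1.55% were called between N and C, 1.48% as higher in N, and 1.39% were called lower in NP than in N. Between NP and C, 0 of the 58 were called by limma, where 0.0387% of all genes were, and 5 had an unadjusted *P* under 0.05. The count of 15 was 7 without C replicate 1, 5 without C replicate 2 and 8 without N replicate 2, and the count of 17 was between 8 and 11 when any 1 of the 6 libraries was left out and 8 when only the NP and N libraries were fitted. The genes *Irf9*, *Tapbpl*, *H2-T22* and *H2-T23* were among those that kept their calls in both comparisons under every alternative and with every library left out.

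The constitutive 20S proteasome is the counterpart of the inducible subunits. None of its 14 subunits passed the test between N and C or between NP and N (limma), and 2 and 0 had an unadjusted *P* under 0.05. Their median differences were -0.13 and -0.14 on the log2(FPKM + 1) scale.

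Among the proteasome activators, *Psme2*, a subunit of the interferon-inducible PA28 cap, was at 74.4 and 75.8 FPKM on chow, 163 and 208 on the NASH diet and 54.2 and 65.2 with pemafibrate. It rose by 1.28 ± 0.16 from C to N (limma, adjusted *P* = 0.0219) and fell by 1.62 ± 0.16 from N to NP (limma, adjusted *P* = 0.00991). The N call was lost when either C library or N replicate 2 was left out, and the NP call without C replicate 1, without NP replicate 1 or when only the NP and N libraries were fitted. *Psme1*, which assembles with it, was at 144 and 167 FPKM on chow and at 250 and 317 on the NASH diet, a difference of 0.86 ± 0.16 that was not past the threshold (limma, adjusted *P* = 0.0771) but was past it with the libraries scaled to the same total and with the replicate number as a block. It was at 118 and 131 FPKM in the NP libraries and fell by 1.18 ± 0.16 from N to NP (limma, adjusted *P* = 0.0310), a call that was lost when any 1 library was left out, without a filter and when only the NP and N libraries were fitted. The ratio of *Psme1* to *Psme2* was 1.93 and 2.202 on chow, 1.53 and 1.52 on the NASH diet and 2.17 and 2.003 with pemafibrate. *Psme3*, *Psme4* and *Pomp*, which helps to assemble the proteasome, were not called.

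Of the chaperones and trimming enzymes, 2 of 5 rose in the N group and fell in the NP group. *Tapbpl*, a tapasin relative that edits the peptides, was at 4.54 and 3.82 FPKM on chow, 16.99 and 15.88 on the NASH diet and 4.08 and 4.15 with pemafibrate. It rose by 1.75 ± 0.12 (limma, adjusted *P* = 0.00292) and fell by 1.77 ± 0.12 (limma, adjusted *P* = 0.00253). *Erap1*, the aminopeptidase that trims peptides in the endoplasmic reticulum, was at 13.4 and 13.7 FPKM on chow, 28.90 and 30.01 on the NASH diet and 13.5 and 13.2 with pemafibrate. It rose by 1.07 ± 0.10 (limma, adjusted *P* = 0.00807), a call that was lost when either C library was left out. It fell by 1.08 ± 0.10 with pemafibrate (limma, adjusted *P* = 0.00768), a call that was lost when either C or either NP library was left out and when only the NP and N libraries were fitted. The general chaperones *Calr*, *Canx* and *Pdia3*, which fold many glycoproteins, had N minus C differences of 0.00, -0.08 and 0.20 and were not called (limma, adjusted *P* = 0.998, 0.808 and 0.482).

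Of the non-classical and class I-like genes, 15 of 21 passed the filter, and 7 of these rose in the N group and fell in the NP group. *H2-T22* rose by 2.998 ± 0.22 (limma, adjusted *P* = 0.00315), from 2.52 and 2.39 FPKM on chow to 24.6 and 28.8 on the NASH diet, and was at 2.31 and 4.05 with pemafibrate. *H2-T23*, which encodes Qa-1, a ligand of NK cell receptors, rose by 1.98 ± 0.12 (limma, adjusted *P* = 0.00181), from 27.5 and 25.8 FPKM to 112 and 104, and was at 25.8 and 22.6 with pemafibrate. *H2-Q7* rose by 2.57 ± 0.30 (limma, adjusted *P* = 0.0172), *H2-T9* by 2.01 ± 0.22 (limma, adjusted *P* = 0.0140), *H2-Q5* by 1.94 ± 0.26 (limma, adjusted *P* = 0.0297) and *H2-Q4* by 1.90 ± 0.23 (limma, adjusted *P* = 0.0192). *H2-M3*, which presents formylated peptides, rose by 1.40 ± 0.13 (limma, adjusted *P* = 0.00804). In each comparison the calls of these last 5 were lost when certain single libraries were left out, that of *H2-Q5* between N and C also without a filter and those of *H2-T9* and *H2-M3* between NP and N also when only these libraries were fitted, and levels within this family are as uncertain as those of *H2-K1* and *H2-D1*.

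Among the 13 transcription factors of class I promoters, 5 rose in the N group and fell in the NP group. *Irf1*, which binds the ISRE of class I promoters, was at 13.9 and 13.7 FPKM on chow, 35.53 and 50.04 on the NASH diet and 12.4 and 15.4 with pemafibrate, a rise of 1.55 ± 0.19 (limma, adjusted *P* = 0.0219). *Irf9* rose by 1.69 ± 0.12 (limma, adjusted *P* = 0.00308), *Stat2* by 1.42 ± 0.18 (limma, adjusted *P* = 0.0220) and *Irf8* by 1.21 ± 0.13 (limma, adjusted *P* = 0.0141). The calls of *Irf1*, *Stat2* and *Irf8* between N and C were lost when either C library or N replicate 2 was left out, that of *Stat2* also without NP replicate 1, without a filter and when only the 2 groups were fitted, and those between NP and N were lost in 5 or 6 of the 6 cases of a library left out and when only the NP and N libraries were fitted, those of *Irf1* and *Stat2* also without a filter. *Rfx5*, a subunit of the RFX complex with which NLRC5 acts, had a difference of 0.47 ± 0.16 and was not called (limma, adjusted *P* = 0.265), nor were the other RFX and the NF-Y subunits.

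Interferon gamma and its receptor act upstream of these factors. *Ifng* itself was listed at 0 in 5 libraries and at 0.114 FPKM in N replicate 2, and was under the filter. Of the 5 other genes of the list, the receptor subunits *Ifngr1* and *Ifngr2* and the kinases *Jak1* and *Jak2* among them, 0 were called by limma in either comparison, and 1 and 0 had an unadjusted *P* under 0.05. The 1 was *Socs1*, at 0.225 and 0.684 FPKM on chow, 1.01 and 3.73 on the NASH diet and 0.480 and 0.927 with pemafibrate. Its difference from C to N was 1.10 ± 0.42 (limma, adjusted *P* = 0.302). Of the 7 co-receptor and receptor genes of lymphocytes, 1 passed the filter. This was *Pirb*, an inhibitory receptor for class I molecules, with a difference of 0.78 ± 0.16 from C to N that was not called (limma, adjusted *P* = 0.0957). It fell by 1.19 ± 0.16 from N to NP (limma, adjusted *P* = 0.0303), a call that was lost when any of 5 libraries was left out, N replicate 2 being the exception, and also without a filter and when only the NP and N libraries were fitted.

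**Figure D4:**
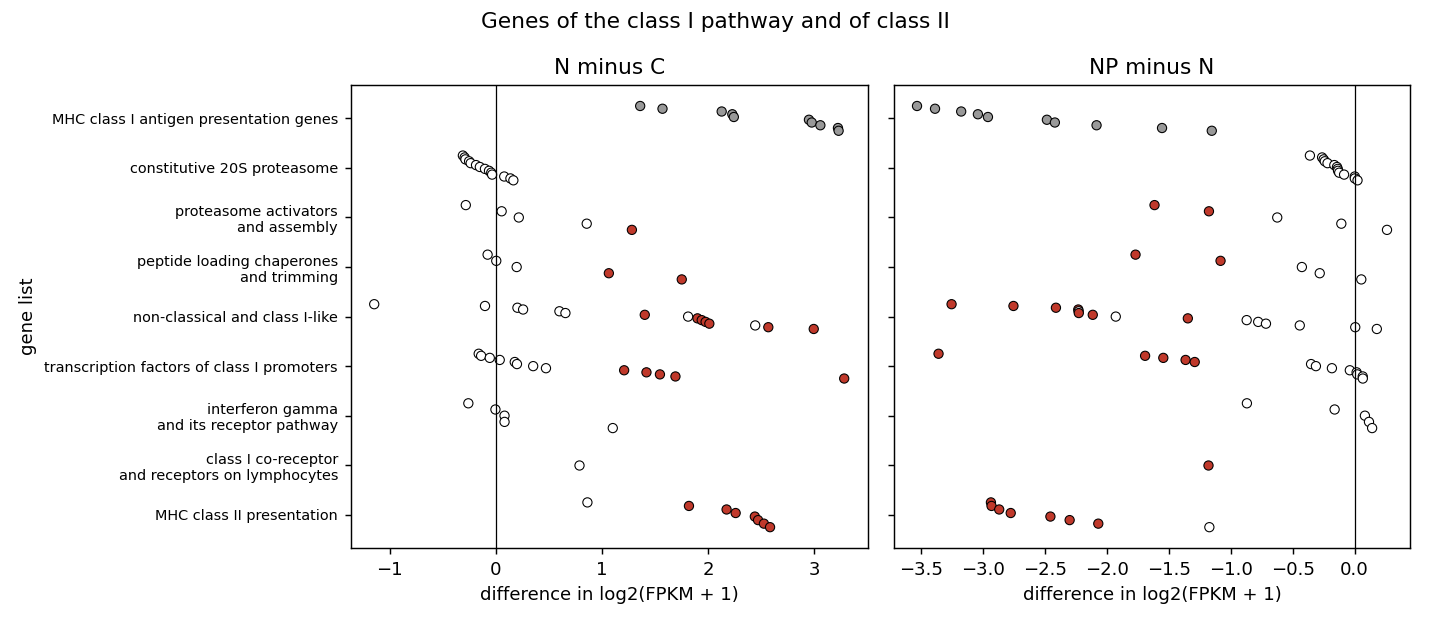
Differences in log2(FPKM + 1) between N and C (left) and between NP and N (right) for the tested genes of each list, 1 point per gene. Grey points are the 10 MHC class I genes, which carry no test, red points passed the adjusted threshold of 0.05 in limma and white points did not. The 14 constitutive 20S subunits lie near 0 in both panels, and the class II list has 7 red points of 8 in each.

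The MHC class II list, which serves presentation to CD4 T cells by professional antigen-presenting cells, had 8 of 10 genes above the filter. Of these, 7 rose in the N group and 7 fell in the NP group, with median differences of 2.35 and -2.62. *H2-Aa* rose by 2.53 ± 0.11 (limma, adjusted *P* = 0.00096), the invariant chain *Cd74* by 2.59 ± 0.18 (limma, adjusted *P* = 0.00308) and the class II transactivator *Ciita* by 1.82 ± 0.13 (limma, adjusted *P* = 0.00326). *Cd74* was at 131 and 121 FPKM on chow, 916 and 636 on the NASH diet and 114 and 108 with pemafibrate.

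The 7 class I genes of chromosome 17 span chr17:33919478-35267497, and 63 other tested genes lie in that interval. Of the 55 of these without an H2 symbol and on none of the lists, 4 were called higher in the N group and 1 lower in the NP group, with median differences of -0.04 and 0.01 on the log2(FPKM + 1) scale. Over all genes tested, 1.48% were called higher in N than in C and 1.39% lower in NP than in N. Of the 8 with such a symbol or on a list, 5 were called in each comparison, with medians of 2.22 and -2.38. These 5 all belong to the class II list and were counted there, and those with an H2 symbol but on no list were not called.

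Genes outside the class I list with the profile most like the 10 were ranked by Pearson's r with the mean standardised profile over the 6 libraries, among 1245 genes with a range of at least 1 on the log2(FPKM + 1) scale. The first was *Tapbpl* with r = 0.9996, and the 10 most alike also held *Gbp5*, *Irf9*, *Usp18*, *Cd274*, *Uba7*, *Parp14*, *Igtp* and, as the last, *Samhd1* with r = 0.9959. The 6 points share the libraries and the N against C and NP contrast, and r is given as a description. *Igtp*, an interferon-inducible GTPase, had the widest range of these, at 9.47 and 7.74 FPKM on chow, 397 and 601 on the NASH diet and 6.46 and 8.97 with pemafibrate. *Cd274*, which encodes the ligand PD-L1, was at 3.95 and 3.21 FPKM on chow, 45.0 and 53.6 on the NASH diet and 2.60 and 3.42 with pemafibrate. Among the 10 themselves, r of a gene with the mean of the other 9 ran from 0.954 for *Tapbp* to 0.997 for *Psmb9*.

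Markers of other cells are given beside the class I genes. The 9 macrophage markers summed to 348 and 315 FPKM on chow, 632 and 539 on the NASH diet and 261 and 229 with pemafibrate, with 4 of 9 called higher in the N group and 6 of 9 lower in the NP group (limma). The 7 T cell markers found of 8 listed summed to 0.960 and 0.939 FPKM on chow, 4.68 and 3.83 on the NASH diet and 1.12 and 1.09 with pemafibrate, with *Cd3d* listed at 0 in both NP libraries. Of these, 1 passed the filter and 0 were called between N and C or between NP and N (limma, 0 and 0 at an unadjusted *P* under 0.05). The 6 NK cell markers summed to 0.531 and 0.584 FPKM on chow, 6.47 and 8.18 on the NASH diet and 0.433 and 0.492 with pemafibrate, with *Eomes* listed at 0 in both C and both NP libraries. Of the 2 above the filter, 1 was called higher in N than in C and 1 lower in NP than in N (limma). The 5 B cell markers summed to 1.04 and 0.783 FPKM on chow, 5.46 and 5.13 on the NASH diet and 1.28 and 1.28 with pemafibrate, with *Pax5* listed at 0 in both NP libraries. Of the 2 above the filter, 0 were called in either comparison (limma, 2 and 2 at an unadjusted *P* under 0.05). Of the 6 adipocyte genes, 5 lay higher in N than in C and 3 lower in NP than in N without overlap. Their median differences were 2.66 and -1.31 on the log2(FPKM + 1) scale, and 0 were called in either comparison (limma, 5 and 0 at an unadjusted *P* under 0.05). Over all genes tested, 22.5% lay higher in N than in C and 14.7% lower in NP than in N without overlap. Of the 8 ventricular and shared cardiomyocyte genes, 6 lay lower in N than in C and 6 higher in NP than in N without overlap, with medians of -0.34 and 0.19, and 0 were called (limma, 4 and 1 at an unadjusted *P* under 0.05). Over all 12923 genes tested, 3483 lay lower in N than in C and 1958 higher in NP than in N without overlap. The endothelial and fibroblast lists had 0 genes called by limma in either comparison, with 1 and 1 at an unadjusted *P* under 0.05 between N and C and 0 and 0 between NP and N. In bulk libraries, fewer cells of a type and less RNA per cell cannot be told apart. The part of these cells in the class I levels was not tested.

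The atrial genes, by contrast, were called in 4 of 4 cases between N and C and in 3 of 4 between NP and C, and 0 of 4 were called between NP and N (limma, with 0 at an unadjusted *P* under 0.05). The class I genes were low in the NP libraries, in which the atrial genes were as high as in the N libraries. The part of atrial tissue in the class I levels was not tested. For the difference between N and C, the amount of atrial tissue, the depth of the libraries and the diet cannot be told apart.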

How the data were processed

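Heart RNA of 6 libraries, grouped by the diet and dose in the sample labels, was analysed. According to the methods and the submitters' processing notes, single-end reads were mapped to mm10 with TopHat2 2.0.13, Bowtie2 2.2.3 and SAMtools 0.1.19, and Cufflinks 2.2.1 gave the FPKM that the authors deposited, 1 table per library. The annotation and the strand setting are not given in the sources used here. FPKM are relative to each library's total, so an abundant gene that rises lowers the others. Read counts were not used here. The depth of each library was estimated from the steps between low FPKM values. This used 4245 genes with 1 transcript in GENCODE M21, with 200 bases taken off the transcript length. Reads per gene and library were then approximated from the FPKM, that depth and the longest transcript of the gene less 200 bases. They can be too high where shorter transcripts are present.

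FPKM were taken as log2(FPKM + 1). The 12923 genes whose FPKM averaged 0.5 or more were fitted with limma 3.58.1 in R 4.3.3, as 3 groups in one model with 3 residual degrees of freedom and empirical Bayes moderation with a trend. Adjustment of *P* over every gene tested in the comparison followed Benjamini and Hochberg (Benjamini-Hochberg), and the threshold was 0.05. The fit was tested on simulated data. Ratios and sequences were handled with pandas 2.3.3 and numpy 2.4.6 under Python 3.11.15, and plots drawn with matplotlib 3.10.9.

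The 10 genes and the lists were chosen with earlier results of these data known. No *P* value is therefore given for the 10, and counts of calls over the lists are a description. The listed genes outside the 10 were not picked by how each of them moved. Named were the 10 genes, up to 6 called genes of each list with the largest difference between N and C, a fixed set of pathway genes, the 10 genes most alike, and *Cd74*, *H2-Aa* and *Ciita* of class II. *H2-M3*, *Psme3*, *Psme4*, *Pomp*, *H2-L*, *Socs1*, the single hepatocyte genes and the receptor and kinase genes beside *Ifng* were named in addition after their values were seen. An item of the lists is not reported here. Promoters and positions are those of RefSeq (GRCm38.p6). As alternatives, other pseudocounts, filters, scalings, a replicate block, fits of only the groups compared and the leaving out of each library were tried.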

Additional observations from a re-analysis of the deposited data

How the results depend on the processing

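The 10 class I genes kept the direction of both N differences under every alternative run and with each library left out. Their median N minus C difference was 2.90 with a pseudocount of 0.1 and 2.77 with libraries scaled to the same total, and their median NP minus N difference was -3.07 and -2.76 under these settings and between -2.79 and -2.61 with each library left out in turn. Of the differences of single class I genes under the alternatives, 13 moved by more than the spread between replicates and 407 did not. Other filters, the replicate block and fits of only the groups compared leave these differences unchanged. Leaving out a library cannot move them by more than this spread. Only the pseudocount and the scalings could do so, and nothing is read from the 407.

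The number of genes called between N and C was 200, but 309 with the same total and between 78 and 194 with a library left out. It was 78 without C replicate 2, 123 without N replicate 1 and 100 without N replicate 2. Between NP and N it was 179, but 78 when only the 2 groups were fitted and between 75 and 106 with any 1 library left out. Between NP and C it was 5, but 12 with a pseudocount of 0.1, 10 with the same total, 0 without a filter (limma, with 1353 genes at an unadjusted *P* under 0.05), and between 5 and 107 with a library left out, of which 107 came without C replicate 1, 13 without C replicate 2 and 14 without NP replicate 1. Without C replicate 1 the 194 genes called between N and C were 89 higher and 105 lower. The other class I pathway genes called numbered between 5 and 15 of the 15 between N and C, and between 8 and 11 of the 17 between NP and N, with a library left out, and 8 between NP and N when only these groups were fitted. Where a library is left out, the remaining one is assumed to vary like the other groups.

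With a replicate block, 328 genes were called between N and C (274 higher, 54 lower), 200 between NP and N and 20 between NP and C. Samples with the same number deviated together between N and NP (correlation over 12923 genes 0.458), a sharing that the main fit does not use. They did so less between C and NP (0.124) and hardly between C and N (0.0471), so the numbers are not shown to pair the C samples with the others.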
